A study of Mus musculus with 43 samples.

Results

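The arcuate nucleus (ARC) and the ventromedial hypothalamus (VMH) lie side by side at the base of the hypothalamus. Here the RNA of both nuclei was compared within the same ad libitum–fed mice. The comparison rests on 10 of the 43 samples of the series, 5 ARC and 5 VMH libraries from mice Fed-111, Fed-125, Fed-127, Fed-308 and Fed-313, matched by the mouse number in each library's title. A further 2 ARC columns of the expression table matched no sample by label and were not used. All mice were males of strain C57/BL6 that had lost the Snord116 cluster of the paternal chromosome (allele B6(Cg)-Snord116tm1.1Uta/J) and were 17 to 19 weeks old per the study's methods. Snord116 is an imprinted cluster of small nucleolar RNAs, transcribed from the paternal chromosome. Neither a wild-type library nor the Snord116 genes were analysed here, so the deletion is common to both groups and was not checked. Each nucleus was cut by laser from stained brain sections, 90 sections per brain on average, and 2 ng of RNA was amplified before sequencing. Each library is therefore a bulk capture of 1 nucleus of 1 mouse. In such a capture, fewer cells of a type and less RNA per cell cannot be told apart.

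The ARC holds neurons that sense circulating hormones of energy balance. Its NPY neurons promote feeding and release GABA, and its dopamine neurons restrain prolactin release from the pituitary. It borders the third ventricle, which is lined there by tanycytes, and much of it lies close to the median eminence. The VMH is mostly made of glutamate neurons that take part in glucose counter-regulation, energy expenditure, defensive behavior and sexual behavior, and a core of them depends on the transcription factors FEZF1 and SF-1 in development. SF-1 (Nr5a1), like Agrp and Pomc, was not analysed here. Expression is given in CPM, read counts scaled to a common total per library, and differences are ARC minus VMH on the log2(CPM + 0.5) scale with their standard error (SE). That scale understates the differences of genes with low values. A gene was called at a Benjamini-Hochberg adjusted p under 0.1 in limma with mouse as a block, the threshold of the study. CPM is not divided by gene length, so levels are compared between libraries and never between genes.

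The depth read from the lowest values was 2.37 to 6.29 M reads per ARC library and 3.44 to 5.91 M per VMH library, and 171 to 435 of the 10127 genes of the table were at 0 in a library. ARC-111 had the lowest depth and the most genes at 0. In a principal component analysis, nucleus explained 98.5% of the component with the most variance (28.8%). Of the next component (15.3%), mouse explained 97.95% and batch 97.4%. Each mouse belonged to 1 batch, so batch and mouse cannot be told apart there. Of the 5 fed pairs, batch 1 held that of mouse Fed-111, batch 2 those of mice Fed-125 and Fed-127, and batch 3 those of mice Fed-308 and Fed-313. Each mouse gave both nuclei in the same batch, so each difference was taken within mouse and within batch.

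Of 9547 genes tested, 937 were higher in the ARC (9.81%) and 1069 were higher in the VMH (11.2%). When the variance was fitted without a trend over expression level, the counts were 555 and 713. With a log2 difference of at least 1, the counts were 435 (4.56%) and 499 (5.23%), and at least 3 log2 units separated 39 and 23 genes. In all 5 mice, 759 of the 937 and 921 of the 1069 genes differed in the called direction. The libraries of the nuclei did not overlap for 359 genes called higher in the ARC and for 489 called higher in the VMH, against 384 (4.02%) and 513 (5.37%) of all genes tested. The median difference over all genes tested was -0.0013.

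**Figure D1:**
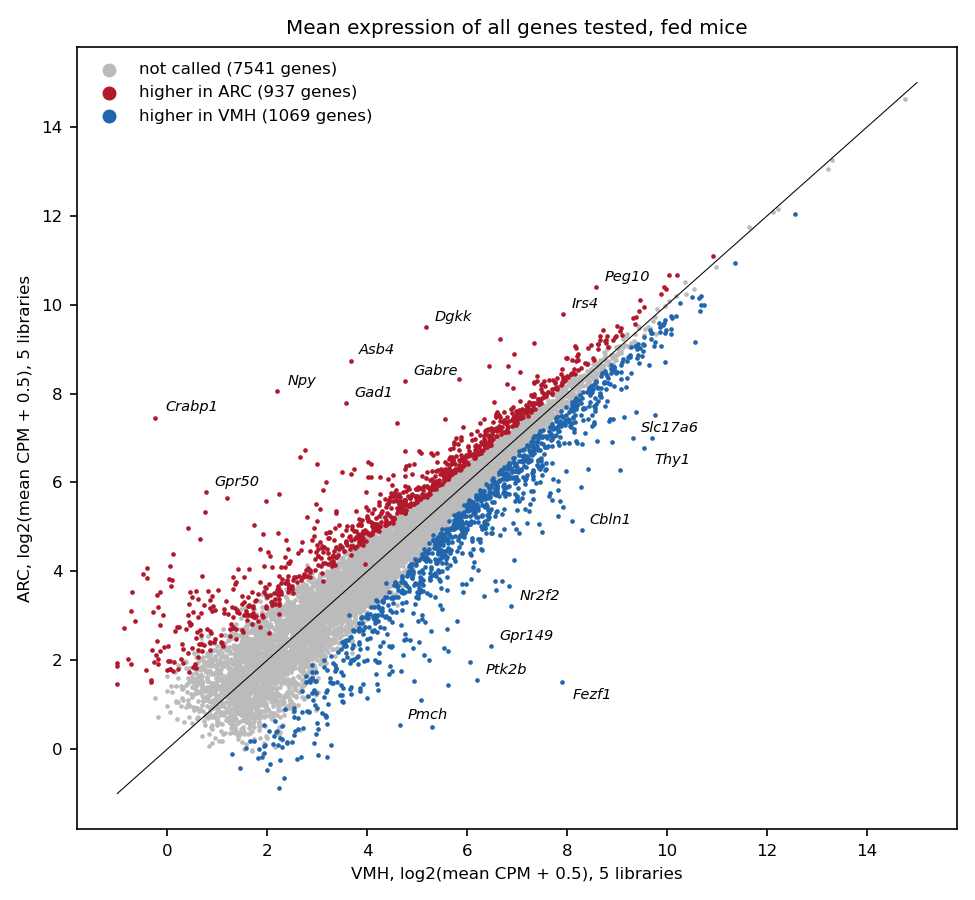
Mean expression of the 9547 genes tested in the 5 ARC libraries (vertical axis) against the 5 VMH libraries (horizontal axis), both as log2(mean CPM + 0.5). Red points are the 937 genes higher in the ARC and blue points the 1069 genes higher in the VMH at an adjusted p under 0.1, and the line marks equal levels. Crabp1 and Npy lie farthest above the line and Fezf1 farthest below it.

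Npy encodes neuropeptide Y, which stimulates feeding, and marks the ARC. It stood at 370.5, 288, 269, 194 and 214 CPM in the ARC and 11.9, 1.21, 3.00, 1.81 and 2.37 CPM in the VMH of mice Fed-111, Fed-125, Fed-127, Fed-308 and Fed-313, the order used for all values per library below. The lowest ARC value was far above the highest VMH value, which came from mouse Fed-111, and the difference was 6.24 ± 0.30 (SE, adjusted p = 8.58e-10). Fezf1, a zinc finger repressor required for VMH development, stood at 2.11, 0.508, 0.456, 1.87 and 6.83 CPM in the ARC and 193, 256, 253, 256 and 233 CPM in the VMH. ARC-313 had the highest ARC value, and the groups did not overlap (-6.80 ± 0.38, adjusted p = 4.99e-09). Both genes therefore matched the labelled nucleus in all 10 libraries. In the same mice Npy averaged 2.14 ± 1.93 CPM in the DMH and 2.15 ± 0.444 CPM in the PVN (SD, n = 5), and Fezf1 averaged 6.94 ± 2.201 CPM in the DMH and 5.27 ± 2.05 CPM in the PVN, with DMH the dorsomedial hypothalamus and PVN the paraventricular nucleus. Npy spans chr6:49822710-49829507 and Fezf1 chr6:23245044-23248362 (GRCm38, GENCODE M21).

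**Figure D2:**
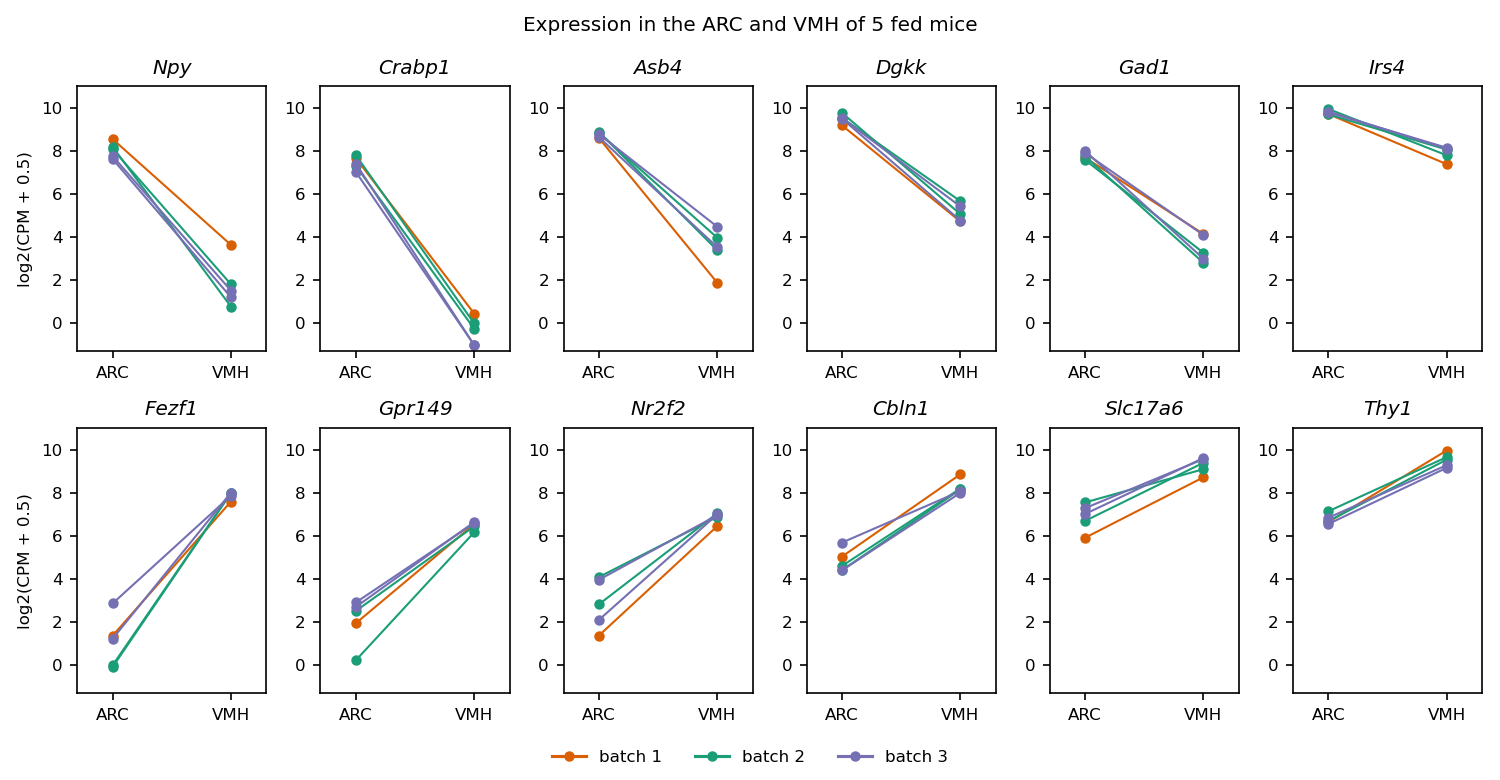
Expression of 12 genes as log2(CPM + 0.5) in the ARC and VMH of the 5 fed mice, with a line joining the 2 libraries of a mouse and colors for the 3 batches. In the upper row (Npy, Crabp1, Asb4, Dgkk, Gad1, Irs4) every line falls from the ARC to the VMH, and in the lower row (Fezf1, Gpr149, Nr2f2, Cbln1, Slc17a6, Thy1) every line climbs.

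The largest difference toward the ARC was that of Crabp1, which encodes a cytosolic protein that binds retinoic acid. Its values were 201, 156, 221, 129 and 168 CPM in the ARC and 0.872, 0.345, 0.4999, 0 and 0 CPM in the VMH, a difference of 7.79 ± 0.34 (adjusted p = 5.67e-10), and both VMH libraries of batch 3 were at 0. Asb4, an imprinted gene for a ubiquitin ligase component, was measured at 383, 456, 467, 394 and 435 CPM in the ARC and 3.20, 15.2, 9.998, 11.1 and 21.8 CPM in the VMH (5.28 ± 0.26, adjusted p = 1.01e-09). VMH-111 was the lowest of the VMH libraries for Asb4, the opposite of its place for Npy. Dgkk, an X-linked diacylglycerol kinase, gave 576, 860.4, 733, 716 and 732 CPM in the ARC and 25.9, 33.0, 50.2, 26.7 and 42.3 CPM in the VMH. The ARC libraries stood far above the VMH libraries (4.36 ± 0.14, adjusted p = 2.03e-11). Gpr50, which encodes a melatonin receptor–related orphan receptor found in tanycytes and in neurons of the dorsomedial hypothalamus, gave 65.0, 45.4, 41.3, 51.4 and 68.6 CPM in the ARC and 0, 0.518, 3.25, 1.58 and 0.676 CPM in the VMH (5.30 ± 0.48, adjusted p = 1.18e-06). Th, the rate-limiting enzyme of dopamine synthesis, was at 80.2, 61.0, 45.8, 28.4 and 34.8 CPM in the ARC and 0.291, 4.49, 0, 1.36 and 2.88 CPM in the VMH (4.84 ± 0.52, adjusted p = 8.36e-06). ARC-111 was highest for Th, and no VMH library came near the lowest ARC library. Rxfp1, the relaxin receptor, was at 20.3, 15.4, 24.6, 11.4 and 30.8 CPM in the ARC and 0, 0.173, 1.25, 0.679 and 0.846 CPM in the VMH (4.33 ± 0.48, adjusted p = 1.32e-05).

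The other genes among the 12 largest toward the ARC were Gad1 and Dlx1, described with their groups below, and Vgll3, Krt90 and the uncharacterized 4933403O08Rik. Vgll3, a cofactor of TEAD transcription factors, was at 27.8, 20.8, 28.7, 28.2 and 24.0 CPM in the ARC and 1.45, 0.173, 0, 0 and 3.72 CPM in the VMH (4.62 ± 0.54, adjusted p = 1.94e-05). Krt90, a keratin gene, was at 62.0, 23.4, 28.1, 13.5 and 28.1 CPM in the ARC and 0, 0.173, 0, 1.81 and 2.199 CPM in the VMH (4.79 ± 0.59, adjusted p = 3.24e-05), and ARC-111 was its highest library. 4933403O08Rik was at 42.6, 40.0, 36.3, 26.8 and 53.4 CPM in the ARC and 0.872, 0.173, 0, 1.36 and 3.55 CPM in the VMH (4.94 ± 0.47, adjusted p = 2.15e-06). The groups did not overlap for any of these genes, which the naming rule required of all 24 genes given by size.

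Toward the VMH, Ptk2b followed Fezf1 in size. Ptk2b encodes PYK2, a tyrosine kinase activated by calcium, and stood at 0.422, 1.02, 2.05, 2.07 and 6.67 CPM in the ARC and 74.2, 102, 55.7, 60.9 and 73.7 CPM in the VMH (-4.97 ± 0.42, adjusted p = 5.87e-07). Hmcn2, an extracellular matrix protein of the hemicentin family, was at 0.844, 0.339, 0.684, 0.415 and 2.22 CPM in the ARC and 78.5, 44.2, 24.2, 25.8 and 22.5 CPM in the VMH (-4.78 ± 0.48, adjusted p = 3.73e-06). VMH-111 was highest for Hmcn2. Zfp831, a zinc finger gene, was at 0.844, 1.19, 1.37, 10.99 and 2.70 CPM in the ARC and 48.3, 94.4, 61.2, 67.0 and 61.4 CPM in the VMH (-4.57 ± 0.42, adjusted p = 1.51e-06), with ARC-308 apart from the other ARC libraries. Gpr149, an orphan receptor, was steady among VMH libraries and gave 3.38, 0.678, 5.25, 7.05 and 6.04 CPM in the ARC and 92.8, 71.1, 86.2, 95.9 and 98.9 CPM in the VMH (-4.41 ± 0.34, adjusted p = 1.64e-07). Nr2f2, which encodes the orphan nuclear receptor COUP-TFII, gave 2.11, 16.6, 6.61, 15.1 and 3.81 CPM in the ARC and 87.0, 117, 131, 124 and 127.01 CPM in the VMH (-3.99 ± 0.32, adjusted p = 3.81e-07). The highest ARC value of Nr2f2 was far below the lowest VMH value.

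Bdnf, a neurotrophin whose loss in the VMH is known to cause overeating in mice, was at 5.49, 0, 0.456, 10.6 and 2.70 CPM in the ARC and 38.1, 18.8, 35.0, 37.6 and 42.8 CPM in the VMH (-3.74 ± 0.50, adjusted p = 7.35e-05). Chst8, a sulfotransferase that modifies sugar chains of hormones, was at 1.27, 2.202, 2.74, 0.207 and 1.91 CPM in the ARC and 39.8, 37.3, 34.5, 39.6 and 15.1 CPM in the VMH (-4.05 ± 0.47, adjusted p = 1.70e-05), and VMH-313 was the lowest of its VMH libraries. Cckbr, a receptor for cholecystokinin and gastrin, was at 2.11, 0.847, 1.14, 2.28 and 11.3 CPM in the ARC and 43.6, 40.6, 27.2, 43.2 and 30.1 CPM in the VMH (-3.69 ± 0.46, adjusted p = 3.74e-05). For Cckbr, ARC-313 was well above the other ARC libraries and below every VMH library. The muscarinic receptor gene Chrm5 was at 1.27, 1.02, 3.42, 4.98 and 10.01 CPM in the ARC and 84.9, 17.8, 52.2, 38.2 and 48.4 CPM in the VMH (-3.60 ± 0.43, adjusted p = 2.44e-05). Pmch, the precursor of melanin-concentrating hormone and a marker of the lateral hypothalamus, was at 1.27, 1.02, 0.228, 0.8294 and 1.43 CPM in the ARC and 28.8, 8.98, 25.0, 26.7 and 33.7 CPM in the VMH (-4.07 ± 0.47, adjusted p = 1.75e-05). Parpbp overlaps Pmch on the opposite strand, and since the use of strand in counting is not stated, their reads may be shared. Parpbp was at 1.69, 0.678, 2.05, 4.56 and 2.07 CPM in the ARC and 50.3, 20.5, 41.5, 63.8 and 65.4 CPM in the VMH (-4.22 ± 0.35, adjusted p = 5.34e-07). Both were far higher in DMH captures of the same mice, where Pmch averaged 285 ± 200.1 CPM and Parpbp 602 ± 497 CPM (SD, n = 5). The part of tissue from outside the VMH in these values was not tested.

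The promoters of 6 genes are shown because these genes were called in opposite directions and mark the nuclei or their GABA and glutamate neurons. Each is the stretch of 250 bases before the first RefSeq start (GRCm38.p6), read 5′ to 3′ along the gene's strand. GENCODE M21 places some starts elsewhere, so that the Fezf1 stretch lies in part, and the Gad1 stretch as a whole, within the GENCODE span of its gene. Capitals mark matches, on either strand, to the TATA box TATAAA, the CCAAT box CCAAT, the GC box GGGCGG, the homeodomain motif TAATTA or the nuclear receptor half-site AAGGTCA. Npy, Crabp1 and Gad1 were higher in the ARC, and Fezf1, Nr2f2 and Slc17a6 in the VMH.
Npy, chr6:49822460-49822709, plus strand: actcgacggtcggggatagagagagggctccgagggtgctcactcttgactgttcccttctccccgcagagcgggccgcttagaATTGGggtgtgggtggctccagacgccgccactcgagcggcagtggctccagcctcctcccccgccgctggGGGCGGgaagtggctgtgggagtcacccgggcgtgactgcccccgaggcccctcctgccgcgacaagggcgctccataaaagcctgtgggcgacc
Crabp1, chr9:54764498-54764747, plus strand: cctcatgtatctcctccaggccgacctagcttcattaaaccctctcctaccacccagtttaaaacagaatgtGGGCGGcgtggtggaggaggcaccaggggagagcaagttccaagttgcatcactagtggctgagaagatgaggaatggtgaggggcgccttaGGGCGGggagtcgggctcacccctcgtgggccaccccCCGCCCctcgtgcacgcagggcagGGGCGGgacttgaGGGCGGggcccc
Gad1, chr2:70561879-70562128, plus strand: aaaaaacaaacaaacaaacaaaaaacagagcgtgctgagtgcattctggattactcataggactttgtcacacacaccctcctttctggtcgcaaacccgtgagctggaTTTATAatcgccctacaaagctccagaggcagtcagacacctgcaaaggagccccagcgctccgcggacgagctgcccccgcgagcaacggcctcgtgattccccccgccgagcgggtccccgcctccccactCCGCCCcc
Fezf1, chr6:23248265-23248514, minus strand: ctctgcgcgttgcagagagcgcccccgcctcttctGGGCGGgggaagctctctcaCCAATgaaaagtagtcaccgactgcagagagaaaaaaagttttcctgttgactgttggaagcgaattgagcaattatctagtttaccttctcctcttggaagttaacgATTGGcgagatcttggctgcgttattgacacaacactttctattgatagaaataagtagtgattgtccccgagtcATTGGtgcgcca
Nr2f2, chr7:70366747-70366996, minus strand: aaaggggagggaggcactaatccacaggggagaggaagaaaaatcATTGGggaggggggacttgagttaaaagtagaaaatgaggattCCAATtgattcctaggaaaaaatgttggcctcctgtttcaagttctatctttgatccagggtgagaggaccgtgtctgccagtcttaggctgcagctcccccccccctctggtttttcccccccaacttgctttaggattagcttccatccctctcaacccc
Slc17a6, chr7:51621580-51621829, plus strand: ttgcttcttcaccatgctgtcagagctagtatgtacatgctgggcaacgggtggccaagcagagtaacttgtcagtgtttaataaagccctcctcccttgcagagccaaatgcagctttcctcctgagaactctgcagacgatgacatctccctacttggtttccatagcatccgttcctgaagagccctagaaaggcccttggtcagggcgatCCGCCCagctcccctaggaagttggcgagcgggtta

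The Crabp1 stretch held 5 GC boxes and no CCAAT box, and the Fezf1 stretch held 3 CCAAT boxes and 1 GC box. Npy had 1 match of each, Nr2f2 had 2 CCAAT boxes, Slc17a6 had 1 GC box, and Gad1 had 1 TATA box and 1 GC box. None of the 6 held TAATTA or AAGGTCA. RefSeq promoters were matched by symbol for 6890 of the 9547 genes tested, for 321 of the 435 genes higher in the ARC by at least 1 log2 unit and for 346 of the 499 higher in the VMH by as much. A CCAAT match was present in 37.7% of these promoters for the ARC, 37.3% for the VMH and 35.8% for all genes tested. A GGGCGG match was present in 58.6%, 55.5% and 56.8%, and TATAAA in 6.54%, 5.78% and 5.91%. TAATTA was found in 1.87%, 3.18% and 2.24%, and AAGGTCA in 3.43%, 3.18% and 2.92%. Over all 27025 promoters of the table, the shares were 34.5% for CCAAT, 32.9% for GGGCGG, 13% for TATAAA, 4.9% for TAATTA and 4.05% for AAGGTCA. These are shares of letter matches in a short window, given without a test.

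The marker lists of both nuclei were chosen with earlier results of these data known, so their shares are no independent check of the captures. Of 8 ARC markers tested, 7 were higher in the ARC, against 9.81% of all genes, and the median difference of the 8 was 3.77. Beside Npy, Crabp1, Th and Rxfp1, they were Ghsr, Isl1 and Ghr. Ghsr, the ghrelin receptor, was at 11.8, 25.9, 32.2, 44.0 and 27.8 CPM in the ARC and 1.74, 9.84, 1.000, 2.26 and 1.52 CPM in the VMH (3.21 ± 0.47, adjusted p = 1.57e-04), and VMH-125 stood above the other VMH libraries. Isl1, a LIM homeodomain factor of ARC neurons, was at 64.5 to 91.1 CPM in the ARC and 8.25 to 12.5 CPM in the VMH (2.76 ± 0.23, adjusted p = 4.79e-07). The growth hormone receptor gene Ghr was at 106 to 143 CPM in the ARC and 44.3 to 61.8 CPM in the VMH (1.22 ± 0.14, adjusted p = 2.06e-05). Lepr, the leptin receptor, was the member not called. Its values were 20.7, 14.2, 31.9, 22.2 and 30.3 CPM in the ARC and 27.9, 24.0, 8.75, 12.9 and 18.1 CPM in the VMH, which overlapped, and its difference was 0.43 ± 0.35 (adjusted p = 0.473). When each mouse was left out in turn or another setting was used, the Lepr difference ranged from 0.083 to 0.719. It was never called, with an adjusted p in limma from 0.221 to 0.918.

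Of 15 VMH markers tested, 12 were higher in the VMH, against 11.2% of all genes, with a median difference of -2.38 over all 15. This list too was chosen with earlier results of these data known. Cbln1, a synapse organizer, gave 32.5, 20.8, 23.9, 20.7 and 51.2 CPM in the ARC and 462, 284, 292, 255 and 268 CPM in the VMH (-3.42 ± 0.19, adjusted p = 4.80e-09), with VMH-111 well above the rest. Gda, a guanine deaminase, gave 57.8 to 104 CPM in the ARC and 354 to 621 CPM in the VMH (-2.79 ± 0.13, adjusted p = 8.55e-10). Nptx2, a neuronal pentraxin, gave 1.02 to 10.2 CPM in the ARC and 41.4 to 67.5 CPM in the VMH (-3.15 ± 0.41, adjusted p = 5.87e-05). Fam19a1, Rreb1 and Ldb2 were also higher in the VMH, by 2.19, 1.36 and 1.33 log2 units. Sox14 was not called (-0.50 ± 0.41, adjusted p = 0.474). Cckar and Pgr went the other way. Cckar, a cholecystokinin receptor, was at 1.69 to 15.4 CPM in the ARC and 1.25 to 4.36 CPM in the VMH (1.55 ± 0.59, adjusted p = 0.0893). Pgr, the progesterone receptor, was at 50.2 to 82.1 CPM in the ARC and 38.1 to 53.6 CPM in the VMH (0.48 ± 0.18, adjusted p = 0.0939). Both calls were lost in part of the repeats, in which each mouse was left out in turn or another setting was used. Cckar had an adjusted p from 0.129 to 0.304 when mouse Fed-125, Fed-127, Fed-308 or Fed-313 was left out and up to 0.189 in 3 other settings, and Pgr an adjusted p from 0.123 to 0.324 when mouse Fed-111, Fed-127, Fed-308 or Fed-313 was left out and up to 0.263 in 2 other settings. Without mouse Fed-127, Fed-308 or Fed-313 none of the VMH markers was called higher in the ARC. Of the markers of other nuclei, 3 were tested. Pmch was called, and Avp (0.49 ± 0.55, adjusted p = 0.626) and Pou3f2 (-0.70 ± 0.48, adjusted p = 0.390) were not.

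**Figure D3:**
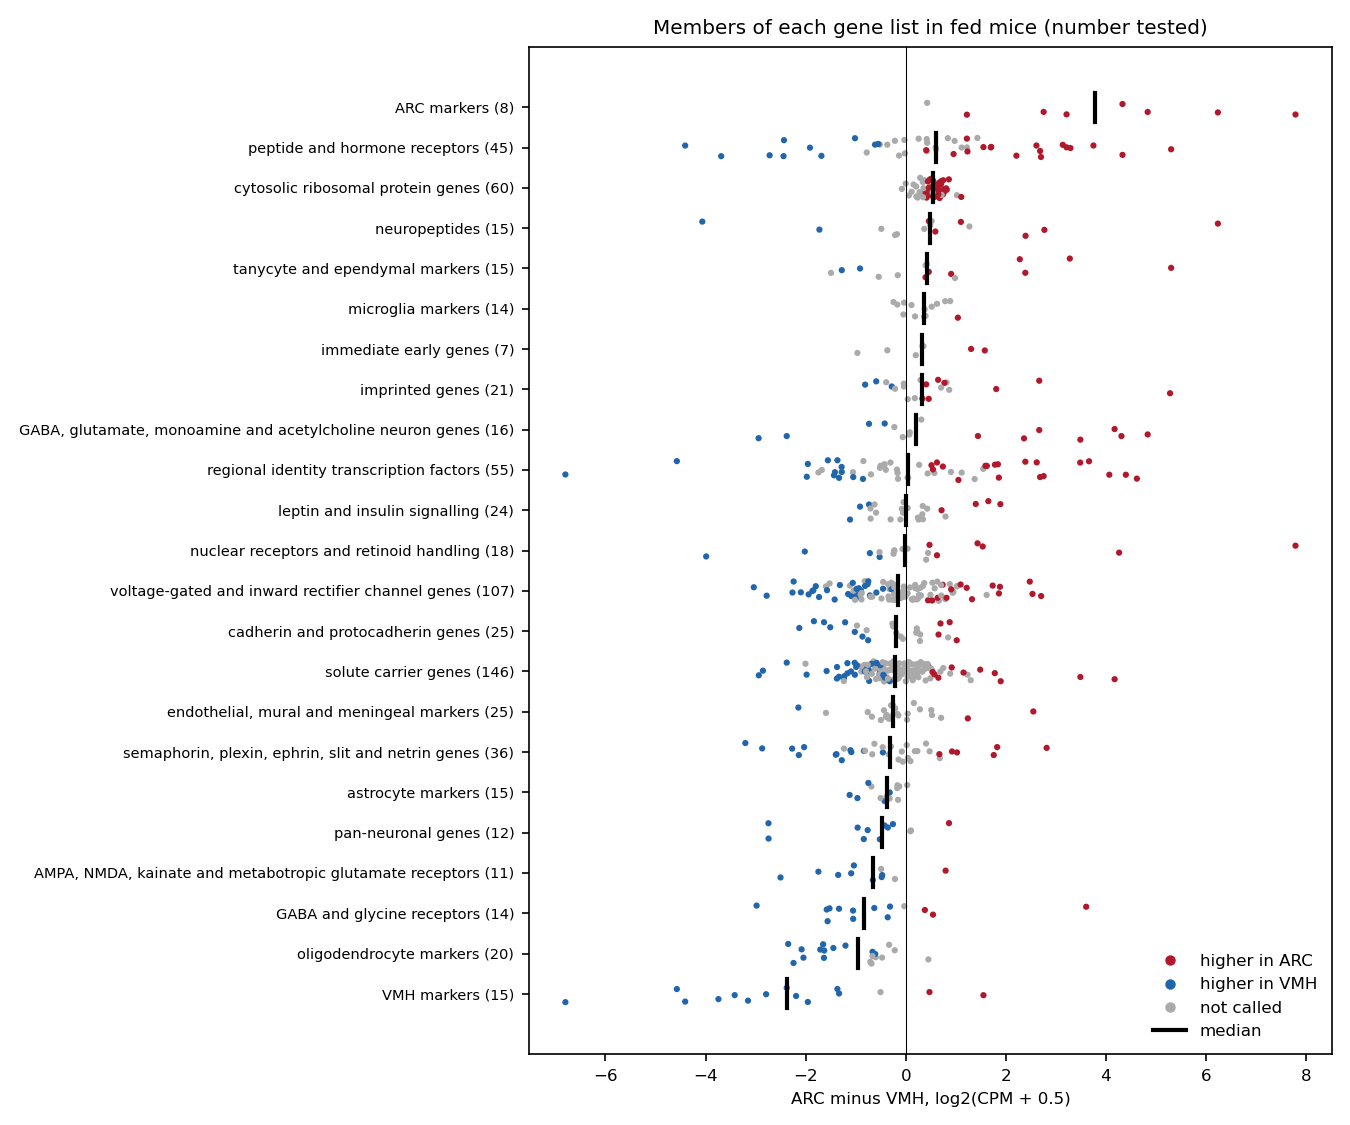
ARC minus VMH difference on the log2(CPM + 0.5) scale of each tested member of 23 gene lists, 1 point per gene, ordered by list median (black bars), with the number tested in brackets. Red points were higher in the ARC and blue points higher in the VMH at an adjusted p under 0.1, and gray points were not called. The ARC markers have a median of 3.77 and the VMH markers of -2.38.

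Among 15 neuropeptide and granin genes, 6 were higher in the ARC and 2 in the VMH (median 0.49, 53.3% called against 21% of all genes). Cck, the precursor of cholecystokinin, was at 8.02, 17.3, 0.456, 34.0 and 1.75 CPM in the ARC and 0.291, 0, 1.4997, 0.452 and 0.507 CPM in the VMH (2.77 ± 0.80, adjusted p = 0.0264). Its ARC libraries differed by far more than its VMH libraries, the lowest overlapped the VMH, and the call was lost in part of the repeats (adjusted p from 0.120 to 0.132 when mouse Fed-125 or Fed-308 was left out and 0.153 without a variance trend). Pnoc, the nociceptin precursor of a GABA population of the ARC, was at 18.6, 11.5, 11.9, 13.7 and 10.01 CPM in the ARC and 0.872, 2.76, 8.50, 3.39 and 0.169 CPM in the VMH (2.39 ± 0.54, adjusted p = 0.00550). Vgf, a secreted protein of dense-core granules, was at 36.9 to 78.1 CPM in the ARC and 15.8 to 44.5 CPM in the VMH (1.10 ± 0.23, adjusted p = 0.00314), and the granin genes Scg3 and Scg2 were higher by 0.59 and 0.46 log2 units, the call of Scg2 being lost without a variance trend (adjusted p = 0.133). Tac1, the precursor of substance P, was higher in the VMH at 13.1, 27.4, 34.2, 44.2 and 23.8 CPM in the ARC and 110.2, 92.7, 82.7, 75.1 and 86.6 CPM in the VMH (-1.73 ± 0.26, adjusted p = 2.17e-04). Penk, the enkephalin precursor, did not pass the test, at 30.8 to 63.5 CPM in the ARC and 43.9 to 87.3 CPM in the VMH (-0.18 ± 0.23, adjusted p = 0.678).

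Of 45 receptors for peptides and hormones, 17 were higher in the ARC and 10 in the VMH (median 0.60, 60% called against 21% of all genes), and 11 were higher in the ARC when only genes at a CPM of at least 5 were kept. Of the receptors for NPY, Npy1r was at 90.7, 117, 132, 110.5 and 66.6 CPM in the ARC and 27.0, 44.7, 21.996, 46.6 and 21.5 CPM in the VMH (1.70 ± 0.20, adjusted p = 2.44e-05). Npy5r was at 11.2 to 31.3 CPM in the ARC and 0.338 to 8.82 CPM in the VMH (2.68 ± 0.43, adjusted p = 3.57e-04). Nmur2, the neuromedin U receptor, was at 9.95 to 19.4 CPM in the ARC and 0.24995 to 1.90 CPM in the VMH (3.29 ± 0.47, adjusted p = 1.40e-04). Brs3, an orphan bombesin receptor whose loss causes obesity in mice, was at 3.90 to 21.7 CPM in the ARC and 0.452 to 2.76 CPM in the VMH (2.61 ± 0.56, adjusted p = 0.00395). The prokineticin receptor gene Prokr1 varied widely among ARC libraries, at 5.91, 47.9, 14.1, 1.66 and 5.08 CPM in the ARC and 0, 0.863, 0, 0.226 and 0 CPM in the VMH (3.75 ± 0.61, adjusted p = 4.46e-04), and ARC-125 held the highest value. Oprm1, the mu opioid receptor, was higher in the ARC by 1.23 ± 0.28 (adjusted p = 0.00601). Mc3r, a melanocortin receptor, was higher in the ARC by 0.96 ± 0.34 (adjusted p = 0.0750), a call that was lost in part of the repeats (adjusted p from 0.109 to 0.259 when mouse Fed-111, Fed-125 or Fed-127 was left out and up to 0.304 in 3 other settings). Toward the VMH, after Gpr149 and Cckbr, came the orexin receptor gene Hcrtr1 at 0, 1.19, 0.912, 0.415 and 1.27 CPM in the ARC and 5.23, 4.49, 8.50, 7.47 and 11.2 CPM in the VMH (-2.72 ± 0.52, adjusted p = 0.00185). Its levels were low, and the groups did not overlap. Sstr3, a somatostatin receptor, was at 2.28 to 6.84 CPM in the ARC and 14.9 to 43.2 CPM in the VMH (-2.43 ± 0.35, adjusted p = 1.57e-04). The delta opioid receptor gene Oprd1 was at 3.05 to 14.3 CPM in the ARC and 13.02 to 41.0 CPM in the VMH (-1.68 ± 0.38, adjusted p = 0.00622), and so lay on the other side from the mu opioid receptor gene. The oxytocin receptor gene Oxtr was at 5.91 to 35.4 CPM in the ARC and 28.8 to 56.5 CPM in the VMH (-1.01 ± 0.27, adjusted p = 0.0157), a call lost with all 4 nuclei in 1 fit (adjusted p = 0.131).

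The leptin and insulin pathway held calls in both directions. Of 24 members tested, 4 were higher in the ARC and 3 in the VMH, a share of 29.2% against 21% of all genes, with a median of -0.0019. Irs4, an insulin receptor substrate with high expression in the hypothalamus, stood at 833, 980.0, 822, 901 and 878 CPM in the ARC and 166, 221, 266, 273 and 282 CPM in the VMH, without overlap (1.89 ± 0.11, adjusted p = 5.40e-09). The related substrates Irs1 (-0.11 ± 0.40, adjusted p = 0.900) and Irs2 (-0.054 ± 0.22, adjusted p = 0.911) did not pass the test. Foxo1, a transcription factor that insulin and leptin signaling restrain, was at 83.1, 91.0, 98.3, 102 and 133 CPM in the ARC and 31.7, 34.5, 30.5, 42.1 and 53.8 CPM in the VMH (1.40 ± 0.16, adjusted p = 2.04e-05). Ucp2, a mitochondrial carrier, was at 102 to 270.5 CPM in the ARC and 65.5 to 118 CPM in the VMH (0.72 ± 0.15, adjusted p = 0.00378), with ARC-111 the highest. Socs3, a feedback inhibitor of leptin signaling, was at low levels, 5.06, 3.22, 4.33, 5.18 and 2.70 CPM in the ARC and 1.45, 1.73, 0.750, 0 and 1.69 CPM in the VMH (1.65 ± 0.58, adjusted p = 0.0668), and its call was lost in part of the repeats (adjusted p from 0.121 to 0.243 when mouse Fed-111, Fed-127 or Fed-308 was left out). Toward the VMH, the growth kinase gene Mtor was at 102 to 160.3 CPM in the ARC and 189 to 237 CPM in the VMH (-0.73 ± 0.12, adjusted p = 4.08e-04). Pik3cb, a catalytic subunit of PI3 kinase, was at 17.3 to 46.4 CPM in the ARC and 33.1 to 58.2 CPM in the VMH (-0.91 ± 0.24, adjusted p = 0.0157). Abcc8, the sulfonylurea receptor of the ATP-sensitive potassium channel, was at 9.71, 7.28, 5.47, 3.53 and 8.26 CPM in the ARC and 42.8, 7.77, 9.25, 11.1 and 19.1 CPM in the VMH (-1.11 ± 0.38, adjusted p = 0.0635). VMH-111 was the highest for Abcc8, and the call was lost in part of the repeats (adjusted p from 0.160 to 0.221 when mouse Fed-111, Fed-308 or Fed-313 was left out).

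Transcription factors of regional identity differed in both directions, 19 higher in the ARC and 13 in the VMH of 55 tested (median 0.037, 58.2% called against 21% of all genes), with 11 higher in the ARC at a CPM of at least 5. Dlx1, a homeodomain factor of forebrain GABA neurons, was at 41.8, 60.5, 55.0, 45.8 and 61.5 CPM in the ARC and 3.49, 0, 2.25, 14.7 and 0.676 CPM in the VMH (4.40 ± 0.57, adjusted p = 5.55e-05), and VMH-308 was apart from the other VMH libraries. Dlx1as overlaps Dlx1 on the opposite strand. Bsx, a homeodomain factor of NPY neurons, was at 43.0, 10.8, 12.5, 10.6 and 7.31 CPM in the ARC and 1.16, 0, 0, 0 and 1.52 CPM in the VMH (4.07 ± 0.55, adjusted p = 8.11e-05), with ARC-111 the highest. Dlx5 was at 3.05 to 16.9 CPM in the ARC and 0 to 0.291 CPM in the VMH (3.66 ± 0.55, adjusted p = 2.05e-04). Gsx1, a homeobox gene required for growth hormone–releasing hormone neurons, was at 3.39 to 23.6 CPM in the ARC and 0 to 1.21 CPM in the VMH (3.49 ± 0.63, adjusted p = 0.00113). Lmo3, a LIM-only cofactor, was at 91.1, 124.5, 110.4, 134 and 138 CPM in the ARC and 360.3, 417, 493, 610.0 and 489 CPM in the VMH (-1.98 ± 0.11, adjusted p = 4.11e-09), and no ARC library overlapped the VMH. Tshz2 and Sox1 were higher in the VMH by 1.43 and 1.42 log2 units.

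Of 18 nuclear receptor and retinoid genes, 6 were higher in the ARC and 4 in the VMH (median -0.013, 55.6% called against 21% of all genes), and 2 were higher in the VMH without a variance trend. Cyp26b1, which degrades retinoic acid, was at 7.17, 12.2, 18.5, 16.2 and 15.4 CPM in the ARC and 0, 0.691, 0.24995, 0 and 0.338 CPM in the VMH (4.26 ± 0.51, adjusted p = 2.44e-05). Rara, a retinoic acid receptor, was at 20.3 to 36.5 CPM in the ARC and 5.07 to 21.2 CPM in the VMH (1.44 ± 0.36, adjusted p = 0.0125). Nr2f1, the COUP-TFI paralog of Nr2f2, was at 1.69, 1.02, 0.684, 4.35 and 2.38 CPM in the ARC and 6.11, 10.01, 9.25, 10.9 and 7.27 CPM in the VMH (-2.02 ± 0.49, adjusted p = 0.00913). The thyroid hormone receptor gene Thra was higher in the VMH by 0.52 log2 units, but not called without a variance trend (adjusted p = 0.109).

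The genes that define GABA and glutamate neurons lay on opposite sides. Of 16 transmitter genes, 7 were higher in the ARC and 4 in the VMH (median 0.20, 68.8% called against 21% of all genes), and 2 were higher in the VMH without a variance trend. Gad1, which makes GABA, was at 204, 189.7, 213, 253 and 237 CPM in the ARC and 17.2, 9.15, 6.499, 7.47 and 16.6 CPM in the VMH (4.31 ± 0.23, adjusted p = 3.51e-09). Slc32a1, which loads it into vesicles, was at 111.4, 99.9, 122, 87.5 and 104 CPM in the ARC and 3.20, 5.70, 13.2, 6.79 and 2.37 CPM in the VMH (4.17 ± 0.31, adjusted p = 1.10e-07). Gad1os overlaps Gad1 on the opposite strand. Slc17a6, the vesicular glutamate transporter VGLUT2, was at 59.9, 187, 103, 129 and 156 CPM in the ARC and 419.7, 545, 669, 779 and 755 CPM in the VMH (-2.38 ± 0.15, adjusted p = 1.66e-08). None of these 3 genes had overlapping groups. Abat, which breaks down GABA, did not pass the test (0.081 ± 0.11, adjusted p = 0.703).

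Gch1, which makes the cofactor of tyrosine hydroxylase, was at 13.1 to 26.4 CPM in the ARC and 0.226 to 7.44 CPM in the VMH (2.36 ± 0.54, adjusted p = 0.00635). Slc10a4, a vesicular protein of monoamine and cholinergic neurons, was at 13.9, 8.47, 5.02, 7.67 and 7.94 CPM in the ARC and 0.291, 0, 0.24995, 1.36 and 0 CPM in the VMH (3.49 ± 0.55, adjusted p = 3.48e-04). Maob, a monoamine oxidase gene, was higher in the ARC by 1.44 ± 0.25 (adjusted p = 9.19e-04). Dlk1, an imprinted Notch ligand–like gene of peptide and dopamine neurons, was at 675, 634, 581, 512 and 612 CPM in the ARC and 76.2, 181, 84.2, 69.7 and 90.8 CPM in the VMH (2.67 ± 0.15, adjusted p = 5.06e-09). Cnr1, the cannabinoid receptor that acts on release of transmitter, was at 36.3, 26.3, 34.9, 40.9 and 35.6 CPM in the ARC and 175, 240.5, 323, 337 and 299.7 CPM in the VMH (-2.94 ± 0.16, adjusted p = 4.11e-09), without overlap. Nos1 was higher in the VMH by 0.73 ± 0.20 (adjusted p = 0.0192), a call lost without a variance trend (adjusted p = 0.150).

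Of 20 oligodendrocyte markers tested, 12 were higher in the VMH and 0 in the ARC (median -0.96, 60% called against 21% of all genes), and their summed level was 473 to 1136 CPM in the ARC and 1522 to 2194 CPM in the VMH. Mbp, a main protein of myelin, was at 116 to 254 CPM in the ARC and 401 to 947 CPM in the VMH (-1.65 ± 0.12, adjusted p = 7.92e-08). Mobp was at 30.8, 60.1, 53.6, 147 and 31.5 CPM in the ARC and 255, 202, 238, 226 and 206 CPM in the VMH (-2.04 ± 0.25, adjusted p = 2.86e-05), with ARC-308 above the other ARC libraries. Opalin, of mature oligodendrocytes, was at 2.11, 0.508, 1.60, 4.35 and 0.477 CPM in the ARC and 20.9, 12.6, 5.75, 7.47 and 5.92 CPM in the VMH (-2.35 ± 0.53, adjusted p = 0.00566). Fa2h, which makes the hydroxylated lipids of myelin, was at 5.49, 6.10, 10.3, 10.8 and 1.59 CPM in the ARC and 61.7, 23.0, 22.5, 25.3 and 26.9 CPM in the VMH (-2.24 ± 0.41, adjusted p = 0.00130). Myrf, the transcription factor that starts myelination, was at 24.1, 1.69, 2.28, 3.73 and 3.81 CPM in the ARC and 16.6, 14.5, 16.0, 25.6 and 33.1 CPM in the VMH (-2.08 ± 0.48, adjusted p = 0.00678). ARC-111 was the highest ARC library for Myrf and overlapped the VMH. Pdgfra and Olig1, which precursors also express, did not pass the test (Pdgfra -0.22 ± 0.22, adjusted p = 0.575, and Olig1 -0.47 ± 0.20, adjusted p = 0.134). The part of oligodendrocyte RNA in the other differences was not tested.

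Of 15 astrocyte markers, 5 were higher in the VMH (median -0.38, 33.3% called against 21% of all genes, summed level 2465 to 3043 CPM in the ARC and 3196 to 3958 CPM in the VMH). Cpe alone averaged 1310 CPM in the ARC and 1479 CPM in the VMH, and it was not called (-0.17 ± 0.069, adjusted p = 0.113 in limma). The sum averaged 2833 CPM in the ARC, 3634 in the VMH, 3993 in the DMH and 3892 in the PVN. Agt, which encodes angiotensinogen, was at 44.7, 22.02, 40.4, 20.7 and 43.2 CPM in the ARC and 108, 49.2, 78.0, 71.3 and 61.2 CPM in the VMH (-1.12 ± 0.20, adjusted p = 0.00120). Atp1b2, a sodium pump subunit of astrocytes, was at 421, 417, 397, 425 and 388 CPM in the ARC and 731, 802, 639.6, 643 and 635 CPM in the VMH (-0.75 ± 0.082, adjusted p = 1.12e-05). Both genes were higher in the VMH of every mouse. The GABA transporter gene Slc6a11 was at 488, 443, 361, 336 and 355 CPM in the ARC and 659.9, 551, 676, 371 and 439 CPM in the VMH (-0.42 ± 0.10, adjusted p = 0.0104), and was not called without a variance trend (adjusted p = 0.218). The Notch target gene Hes5 was at 9.28, 7.79, 9.35, 7.05 and 14.0 CPM in the ARC and 32.9, 17.8, 18.7, 14.0 and 14.0 CPM in the VMH (-0.97 ± 0.34, adjusted p = 0.0675). The bicarbonate transporter gene Slc4a4 was the last of the 5 (-0.32 ± 0.091, adjusted p = 0.0249). The calls of Hes5 and Slc4a4 were lost in part of the repeats, for Hes5 with an adjusted p from 0.129 to 0.209 when mouse Fed-111, Fed-125, Fed-127 or Fed-308 was left out and up to 0.103 in 2 other settings and for Slc4a4 with an adjusted p = 0.109 without mouse Fed-127 and 0.257 without a variance trend. Without mouse Fed-127 or without a variance trend, the list held 3 calls. Gja1 and Sox9 were not called (Gja1 -0.13 ± 0.18, adjusted p = 0.701, and Sox9 0.029 ± 0.34, adjusted p = 0.971).

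Of 15 tanycyte and ependymal markers, 7 were higher in the ARC and 2 in the VMH (median 0.42, 60% called against 21% of all genes), with a summed level of 819 to 1957 CPM in the ARC and 671 to 1100.5 CPM in the VMH. The sum of ARC-111 stood above all other ARC and VMH libraries, and the other ARC libraries lay between 819 and 1102 CPM. In mouse Fed-127 the nuclei were nearly equal (819 CPM in the ARC and 818 CPM in the VMH). Nnat, also on the list of imprinted genes, was the largest part, at 556 ± 361 CPM in the ARC and 393 ± 203 CPM in the VMH (SD, n = 5). The sum averaged 1154 CPM in the ARC, 827 in the VMH, 1168 in the DMH and 1163 in the PVN, so it did not set the ARC apart from the DMH and PVN. After Gpr50 came Spag16, a gene of motile cilia, at 4.22, 6.78, 12.1, 12.9 and 3.97 CPM in the ARC and 0.291, 0.691, 0, 0.452 and 0.169 CPM in the VMH (3.28 ± 0.56, adjusted p = 6.48e-04). Col23a1, a collagen gene of tanycytes, was at 49.8, 31.0, 22.1, 44.4 and 25.9 CPM in the ARC and 13.7, 5.18, 5.50, 10.9 and 2.37 CPM in the VMH (2.28 ± 0.32, adjusted p = 1.15e-04). For both genes the groups did not overlap. Lhx2, a homeodomain factor of tanycytes, was at 13.1, 4.40, 10.5, 7.67 and 6.36 CPM in the ARC and 0.291, 1.73, 1.75, 0 and 4.74 CPM in the VMH (2.39 ± 0.61, adjusted p = 0.0123). The members higher in the VMH were Sox2 (-1.28 ± 0.42, adjusted p = 0.0515) and Col25a1 (-0.91 ± 0.26, adjusted p = 0.0250), and both calls were lost in part of the repeats, for Sox2 with an adjusted p from 0.105 to 0.2 when mouse Fed-125 or Fed-127 was left out and for Col25a1 with an adjusted p = 0.114 without mouse Fed-127 and 0.187 without a variance trend. Many defining genes of the list, such as Rax and Dio2, were not analysed here.

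Of 14 microglia markers, only Ctss was called, at 72.2, 81.5, 87.4, 68.2 and 44.5 CPM in the ARC and 29.1, 38.3, 29.2, 29.4 and 42.3 CPM in the VMH (1.04 ± 0.22, adjusted p = 0.00351), a share below the background of 9.81%, and without mouse Fed-127 there were 2. The summed level was 225 to 313.1 CPM in the ARC and 155 to 275 CPM in the VMH, higher in the ARC of all 5 mice, and 10 of the 14 differences were above 0. Cx3cr1 and Tmem119 were not called (Cx3cr1 -0.046 ± 0.32, adjusted p = 0.948, and Tmem119 0.52 ± 0.49, adjusted p = 0.548). Of 25 vascular and meningeal markers, 2 were higher in the ARC and 1 in the VMH (median -0.25), and the share called, 12%, was below the 21% of all genes. Their summed level was 252 to 377 CPM in the ARC and 279 to 383 CPM in the VMH, higher in the ARC of 1 of 5 mice. Lum, a proteoglycan of fibroblasts, was at 5.91, 17.6, 5.93, 15.6 and 3.34 CPM in the ARC and 0.291, 1.90, 0, 2.71 and 1.69 CPM in the VMH (2.55 ± 0.54, adjusted p = 0.00356). The collagen gene Col1a2 was at 10.1, 4.91, 2.51, 17.8 and 7.31 CPM in the ARC and 6.40, 1.04, 2.00, 6.33 and 1.35 CPM in the VMH (1.24 ± 0.47, adjusted p = 0.0913), a call lost in part of the repeats (adjusted p from 0.112 to 0.261 when mouse Fed-111, Fed-125, Fed-308 or Fed-313 was left out and up to 0.112 in 4 other settings). Without mouse Fed-111, Fed-125 or Fed-308, 1 gene of the list was higher in the ARC, and without mouse Fed-313, 2 were higher in the VMH. Acta2, the actin of smooth muscle, was at 5.06, 3.90, 3.19, 5.599 and 4.61 CPM in the ARC and 23.3, 12.3, 22.5, 32.1 and 20.5 CPM in the VMH (-2.15 ± 0.36, adjusted p = 5.43e-04). Cldn5, of the endothelial barrier, was not called (-0.25 ± 0.48, adjusted p = 0.792). Eya3 was the one pituitary-stalk marker tested and was not called (0.12 ± 0.24, adjusted p = 0.809).

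**Figure D4:**
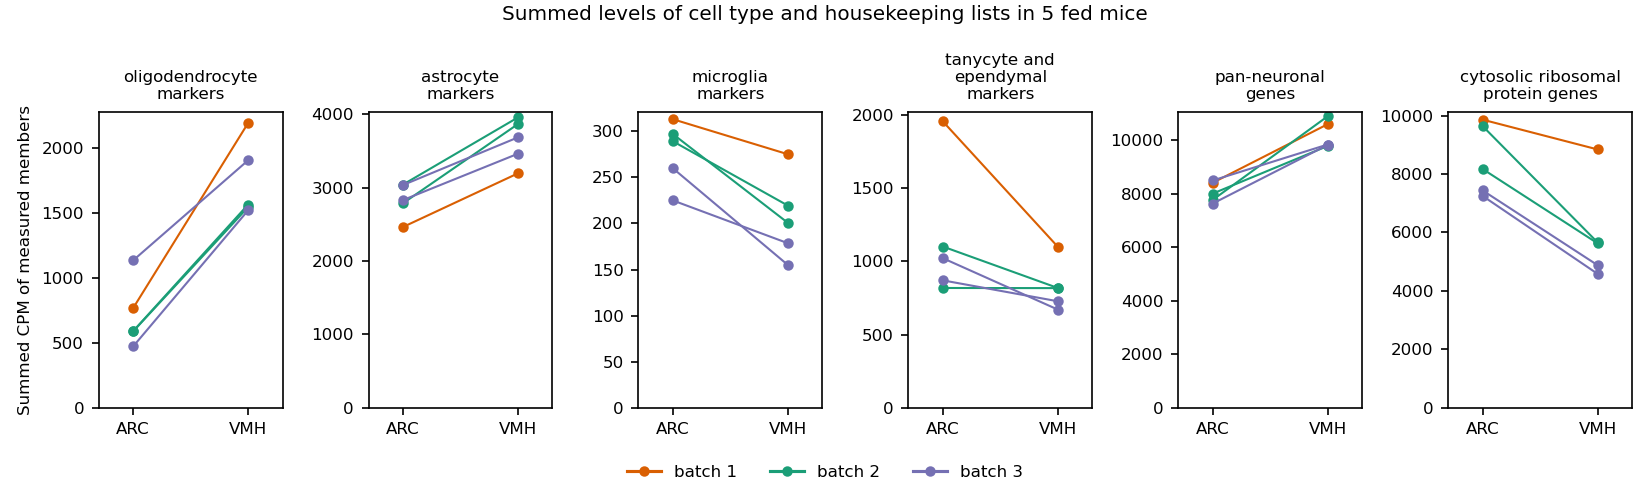
Summed CPM of the measured members of 6 gene lists in each library of the 5 fed mice, with a line joining the ARC and VMH of a mouse and colors for the 3 batches. The oligodendrocyte sums are higher in the VMH in all 5 mice (ARC 473 to 1136, VMH 1522 to 2194), and the ribosomal protein sums are higher in the ARC in all 5.

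Of 12 pan-neuronal genes, which most neurons use, 9 were higher in the VMH and 1 in the ARC (median -0.47, 83.3% called against 21% of all genes), with summed levels of 7631 to 8493 CPM in the ARC and 9781 to 10890.0 CPM in the VMH. Without a variance trend, 5 were higher in the VMH. Thy1, a surface protein of projection neurons, was at 99.2, 102, 140.5, 93.3 and 114 CPM in the ARC and 991, 739, 802, 568 and 619 CPM in the VMH (-2.74 ± 0.12, adjusted p = 5.92e-10). Nrgn, a postsynaptic calmodulin-binding protein, was at 14.3, 14.7, 12.8, 8.50 and 16.4 CPM in the ARC and 139.9, 75.8, 93.0, 65.2 and 92.7 CPM in the VMH (-2.74 ± 0.22, adjusted p = 2.87e-07). The synaptic vesicle gene Syn1 was at 257, 284, 272, 244 and 324 CPM in the ARC and 409, 589, 528, 594 and 585 CPM in the VMH (-0.96 ± 0.10, adjusted p = 5.50e-06). Syt1, the calcium sensor of vesicle release, was higher in the VMH by 0.84 log2 units. Syn1 shares its locus with Araf and Timp1 on the opposite strand. Resp18, a protein of the secretory pathway, was the one higher in the ARC, at 511, 445, 499, 370.4 and 407 CPM in the ARC and 412, 184, 239, 226 and 207 CPM in the VMH (0.86 ± 0.12, adjusted p = 1.17e-04). Uchl1 and Snhg11 were not called (Uchl1 0.094 ± 0.10, adjusted p = 0.607, and Snhg11 0.10 ± 0.068, adjusted p = 0.364).

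Of 11 glutamate receptor genes, 8 were higher in the VMH and 1, Grid1 (0.80 ± 0.17, adjusted p = 0.00488), in the ARC (median -0.66, 81.8% called against 21% of all genes), and 5 were higher in the VMH without a variance trend. The metabotropic receptor gene Grm5 was at 45.1, 87.4, 81.7, 78.2 and 90.2 CPM in the ARC and 199, 239, 278, 258 and 289 CPM in the VMH (-1.74 ± 0.13, adjusted p = 1.41e-07), and ARC-111 was its lowest library. Grm7 was at 35.9, 48.6, 44.9, 39.2 and 39.4 CPM in the ARC and 104, 116, 93.7, 116 and 104 CPM in the VMH (-1.35 ± 0.16, adjusted p = 2.46e-05). Grm4 was at 0.844, 11.01, 2.28, 2.90 and 4.93 CPM in the ARC and 27.0, 21.2, 28.0, 20.4 and 12.5 CPM in the VMH (-2.50 ± 0.49, adjusted p = 0.00197). Grm7 and Grm4 encode mainly presynaptic receptors. The NMDA receptor subunit gene Grin2a was at 23.6, 19.8, 20.8, 23.6 and 23.0 CPM in the ARC and 40.1, 31.9, 54.7, 63.6 and 55.0 CPM in the VMH (-1.09 ± 0.22, adjusted p = 0.00284). Of 14 GABA and glycine receptor genes, 10 were higher in the VMH and 3 in the ARC (median -0.84, 92.9% called against 21% of all genes). Gabre, the epsilon subunit of the GABA type A receptor, was at 290.3, 339, 243, 331 and 344 CPM in the ARC and 45.4, 21.2, 25.2, 15.6 and 24.4 CPM in the VMH (3.61 ± 0.20, adjusted p = 5.06e-09), without overlap. The neighboring X-linked gene Gabrq, for the theta subunit, was higher in the ARC by 0.55 ± 0.090 (adjusted p = 5.34e-04). The glycine receptor gene Glra1 was at 14.3, 12.4, 5.25, 6.64 and 13.2 CPM in the ARC and 86.7, 102, 59.2, 70.1 and 86.8 CPM in the VMH (-2.98 ± 0.24, adjusted p = 2.87e-07). Glra3 was at 10.97, 9.66, 25.3, 25.9 and 13.3 CPM in the ARC and 82.6, 34.4, 34.7, 49.3 and 47.9 CPM in the VMH (-1.56 ± 0.31, adjusted p = 0.00219). Gabrd, the delta subunit, was at 0, 0, 0.684, 1.45 and 0 CPM in the ARC and 0.872, 2.07, 1.75, 3.17 and 1.86 CPM in the VMH (-1.58 ± 0.60, adjusted p = 0.0903), a call lost in part of the repeats (adjusted p from 0.127 to 0.218 when mouse Fed-111, Fed-125, Fed-127 or Fed-313 was left out and up to 0.132 in 2 other settings). Gabra5 was at 93.7 to 172 CPM in the ARC and 239 to 346 CPM in the VMH (-1.33 ± 0.14, adjusted p = 5.82e-06), with ARC-313 above the other ARC libraries. Gphn, which anchors these receptors, was not called (-0.029 ± 0.18, adjusted p = 0.943).

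Of 107 ion channel genes chosen by symbol, which also took Kctd and Ano genes and some antisense RNAs, 15 were higher in the ARC and 28 in the VMH (median -0.16, 40.2% called against 21% of all genes). Scn9a, the sodium channel Nav1.7, was at 276, 313.4, 337, 351 and 329 CPM in the ARC and 36.9, 70.3, 47.7, 64.3 and 62.6 CPM in the VMH (2.53 ± 0.14, adjusted p = 4.11e-09). Its groups did not overlap, while the sodium channel genes Scn1a and Scn2a were higher in the VMH by 1.15 and 0.75 log2 units. Trpc6 was at 7.17, 15.4, 11.9, 13.7 and 15.4 CPM in the ARC and 1.74, 2.76, 1.000, 4.75 and 0 CPM in the VMH (2.71 ± 0.54, adjusted p = 0.00244). Kcna1, a potassium channel of axons, was at 23.2, 18.6, 13.7, 29.7 and 8.26 CPM in the ARC and 128, 86.8, 128, 141 and 126 CPM in the VMH (-2.78 ± 0.24, adjusted p = 8.51e-07). The potassium channel gene Kcnh7 was at 43.5 to 54.7 CPM in the ARC and 156 to 295 CPM in the VMH (-2.24 ± 0.15, adjusted p = 4.99e-08). Cacna2d1, a calcium channel subunit that binds gabapentin, was at 118 to 239.6 CPM in the ARC and 610.4 to 1092 CPM in the VMH (-2.26 ± 0.093, adjusted p = 2.76e-10). Ano3, of the anoctamin family, was at 7.17, 9.66, 7.53, 21.98 and 10.6 CPM in the ARC and 59.9, 56.5, 112, 114 and 131 CPM in the VMH (-3.04 ± 0.26, adjusted p = 5.87e-07).

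Of 25 cadherin genes, 8 were higher in the VMH and 4 in the ARC (median -0.19). Of 36 semaphorin, plexin, ephrin, slit and netrin genes, 12 were higher in the VMH and 6 in the ARC (median -0.32). For comparison, 11.2% and 9.81% of all genes were called in these directions. Cdh13 was at 97.05, 60.5, 87.1, 63.5 and 84.7 CPM in the ARC and 395, 302, 332, 317 and 357 CPM in the VMH (-2.13 ± 0.12, adjusted p = 4.80e-09). Cdh4 was at 48.1, 60.6, 41.5, 19.7 and 56.1 CPM in the ARC and 133, 161, 163, 184 and 126 CPM in the VMH (-1.84 ± 0.23, adjusted p = 4.51e-05). The protocadherin gene Pcdh7 went toward the ARC, at 296 to 391 CPM in the ARC and 152 to 205 CPM in the VMH (1.02 ± 0.11, adjusted p = 6.22e-06). Cdh6 was at 13.9, 1.69, 5.47, 8.92 and 16.0 CPM in the ARC and 23.0, 15.5, 21.996, 19.004 and 32.8 CPM in the VMH (-1.51 ± 0.37, adjusted p = 0.00991), and Pcdh18 was at 13.5, 10.5, 6.39, 6.64 and 15.9 CPM in the ARC and 30.5, 32.5, 36.2, 26.7 and 34.3 CPM in the VMH (-1.63 ± 0.30, adjusted p = 0.00118). Cadherins hold like cells together, and Cdh13, Pcdh18, Cdh4 and Cdh6 had the 4 largest called differences of the family. The axon repellent gene Slit3 was at 9.28, 7.79, 7.98, 16.2 and 19.9 CPM in the ARC and 189, 102, 92.2, 91.6 and 93.7 CPM in the VMH (-3.21 ± 0.28, adjusted p = 8.00e-07), with VMH-111 the highest. Slit2 was at 38.8 to 74.8 CPM in the ARC and 172 to 256 CPM in the VMH (-2.03 ± 0.15, adjusted p = 1.55e-07). Of the ephrin system, the ligand gene Efna5 was at 32.1, 68.7, 67.5, 49.3 and 100.7 CPM in the ARC and 6.69, 8.93, 14.9, 5.32 and 6.85 CPM in the VMH (2.82 ± 0.29, adjusted p = 5.78e-06). The receptor genes Epha10 and Ephb1 lay on the other side and were higher in the VMH. Epha10 was at 2.95, 3.56, 4.56, 2.07 and 0.477 CPM in the ARC and 27.6, 23.7, 9.75, 24.9 and 20.5 CPM in the VMH (-2.87 ± 0.47, adjusted p = 5.33e-04). Ephb1 was at 13.1, 8.47, 12.1, 21.2 and 8.74 CPM in the ARC and 51.5, 95.6, 57.0, 41.2 and 66.5 CPM in the VMH (-2.27 ± 0.31, adjusted p = 9.11e-05). Unc5d, a netrin receptor, was at 339.7 to 479.9 CPM in the ARC and 70.7 to 133 CPM in the VMH (1.83 ± 0.12, adjusted p = 4.93e-08). Of 146 solute carrier genes, 33 were higher in the VMH and 11 in the ARC (median -0.21, against 11.2% and 9.81% of all genes), and 7 in the ARC without mouse Fed-111, Fed-127 or Fed-313 or without a variance trend. Slc24a4, a potassium-dependent sodium/calcium exchanger, was at 0.422, 5.93, 0.912, 2.70 and 1.43 CPM in the ARC and 35.5, 10.9, 14.5, 13.1 and 15.7 CPM in the VMH (-2.94 ± 0.56, adjusted p = 0.00165), and VMH-111 was the highest. Slc16a11, a monocarboxylate transporter gene, was at 0, 1.52, 1.14, 11.8 and 2.54 CPM in the ARC and 31.7, 13.3, 18.2, 18.1 and 7.44 CPM in the VMH (-2.85 ± 0.63, adjusted p = 0.00504).

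Of 21 genes of the list of imprinted genes, 8 were higher in the ARC and 3 in the VMH (median 0.33, 52.4% called against 21% of all genes), and 5 were higher in the ARC without a variance trend. The list also took in Ndnf, which is not an imprinted gene and was not called. After Asb4 and Dlk1 came Peg10, a retrotransposon-derived gene beside Asb4, at 1347, 1609, 1366, 1231 and 1148 CPM in the ARC and 354, 436, 413, 356 and 349 CPM in the VMH (1.81 ± 0.074, adjusted p = 2.76e-10). Rasgrf1 and Nap1l5 were higher in the ARC by 0.65 and 0.41 log2 units, and the call of Nap1l5 was lost without a variance trend (adjusted p = 0.171). Of the Prader-Willi region, Ndn was higher in the ARC at 602, 829, 992, 853 and 948 CPM in the ARC and 634, 681, 733, 613 and 651 CPM in the VMH (0.33 ± 0.089, adjusted p = 0.0178), a call lost without mouse Fed-313 (adjusted p = 0.106) and without a variance trend (adjusted p = 0.294). Magel2 was not called (0.30 ± 0.22, adjusted p = 0.425), although it passed without mouse Fed-127 (adjusted p = 0.0958). The noncoding RNAs Rian and Mirg of the Dlk1 cluster, which come from the maternal allele, went opposite to Dlk1. Rian was at 597 to 724 CPM in the ARC and 911 to 1098 CPM in the VMH (-0.59 ± 0.074, adjusted p = 3.83e-05). Mirg was at 29.1, 37.4, 28.3, 35.3 and 36.7 CPM in the ARC and 60.8, 53.7, 49.5, 70.4 and 60.4 CPM in the VMH (-0.81 ± 0.19, adjusted p = 0.00715).

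Of 7 immediate early genes, 2 were higher in the ARC and 0 in the VMH (median 0.33, 28.6% called against 21% of all genes). Jun was at 50.2, 78.9, 46.5, 44.8 and 43.1 CPM in the ARC and 34.6, 18.99, 10.998, 10.4 and 17.8 CPM in the VMH (1.58 ± 0.27, adjusted p = 6.03e-04), and Junos overlaps it on the opposite strand. Fosl2 was at 44.3, 35.9, 28.7, 33.6 and 43.2 CPM in the ARC and 7.85, 20.0, 20.5, 11.1 and 17.9 CPM in the VMH (1.31 ± 0.29, adjusted p = 0.00577). Egr1 was not called (-0.37 ± 0.29, adjusted p = 0.450), and Npas4 was not (-0.97 ± 0.44, adjusted p = 0.161), although it passed without mouse Fed-125 (adjusted p = 0.0873).

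Of 60 cytosolic ribosomal protein genes tested, 41 were higher in the ARC and 0 in the VMH (median 0.54, 68.3% called against 21% of all genes), while 27 were called higher in the ARC without mouse Fed-127 and 18 without a variance trend. The summed level was 7251 to 9861 CPM in the ARC and 4586 to 8843 CPM in the VMH, and the ARC was higher in 5 of 5 mice although the sum of VMH-111 exceeded those of ARC-125, ARC-308 and ARC-313. Rps27 was at 149, 121, 105, 75.3 and 91.4 CPM in the ARC and 96.3, 48.3, 47.7, 34.6 and 35.0 CPM in the VMH (1.11 ± 0.16, adjusted p = 1.88e-04). VMH-111 was far above the other VMH libraries for Rps27. Rpl26 was at 92.4, 81.8, 66.8, 56.8 and 67.0 CPM in the ARC and 77.1, 45.4, 28.5, 30.8 and 35.5 CPM in the VMH (0.82 ± 0.19, adjusted p = 0.00590). Rpl13 was at 130.4, 112, 106, 94.8 and 109 CPM in the ARC and 88.7, 46.3, 73.5, 53.4 and 59.0 CPM in the VMH (0.81 ± 0.16, adjusted p = 0.00198). Genes of this family have many processed copies in the genome, so the assignment of their reads is uncertain.

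The levels in the DMH and PVN captures of the same mice are given as a description without a test. Of the 435 genes higher in the ARC by at least 1 log2 unit, 293 had their highest mean of the 4 nuclei in the ARC, 54 in the DMH and 88 in the PVN. Of the 499 higher in the VMH, 423 had their highest mean in the VMH, 37 in the DMH and 39 in the PVN. Gad1 averaged 238 ± 39.7 CPM in the DMH and 21.5 ± 8.69 CPM in the PVN, and Slc32a1 averaged 124 ± 29.8 CPM in the DMH and 15.6 ± 4.86 CPM in the PVN (SD, n = 5), so the ARC and DMH were near each other and the VMH and PVN were lower. Slc17a6 averaged 204 ± 46.4 CPM in the DMH and 375 ± 66.6 CPM in the PVN, between the ARC and the VMH. Gpr50 was highest in the DMH (189 ± 33.7 CPM in the DMH and 3.29 ± 2.12 CPM in the PVN). Crabp1 was low in both, at 3.34 ± 2.81 CPM in the DMH and 0.540 ± 0.444 CPM in the PVN. Nr2f2 averaged 57.5 ± 11.4 CPM in the DMH and 23.0 ± 6.93 CPM in the PVN, between its ARC and VMH levels. Irs4 averaged 339 ± 35.1 CPM in the DMH and 296 ± 7.83 CPM in the PVN, above the VMH and below the ARC.

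The same nuclei were compared in 4 other mice, Fast-86, Fast-100, Fast-305 and Fast-311, which carried the same deletion and had fasted for 24 hours before dissection. Of 9607 genes tested, 660 were higher in the ARC (6.87%) and 812 in the VMH (8.45%), and 319 (3.32%) and 426 (4.43%) passed with a log2 difference of at least 1. Without the variance trend the counts were 218 and 315, so the calls shared with fed mice given below rest on that setting. Some mice bore on the counts too, which were 352 and 479 without mouse Fast-100 and 432 and 532 without mouse Fast-305, and the ARC count was 434 without mouse Fast-311. Of the fed calls tested in fasted mice, 862 of 919 toward the ARC (93.8%) and 1017 of 1060 toward the VMH (95.9%) had the same sign. Of these fed calls, 429 toward the ARC were also called in fasted mice, which is 46.7% of the fed and 66% of the 650 fasted calls. Toward the VMH, 616 were called in both, which is 58.1% of the fed and 76.2% of the 808 fasted calls. No gene was called in opposite directions. Across 9367 genes the differences of the 2 states had a Pearson r of 0.688, and genes are not independent replicates.

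**Figure D5:**
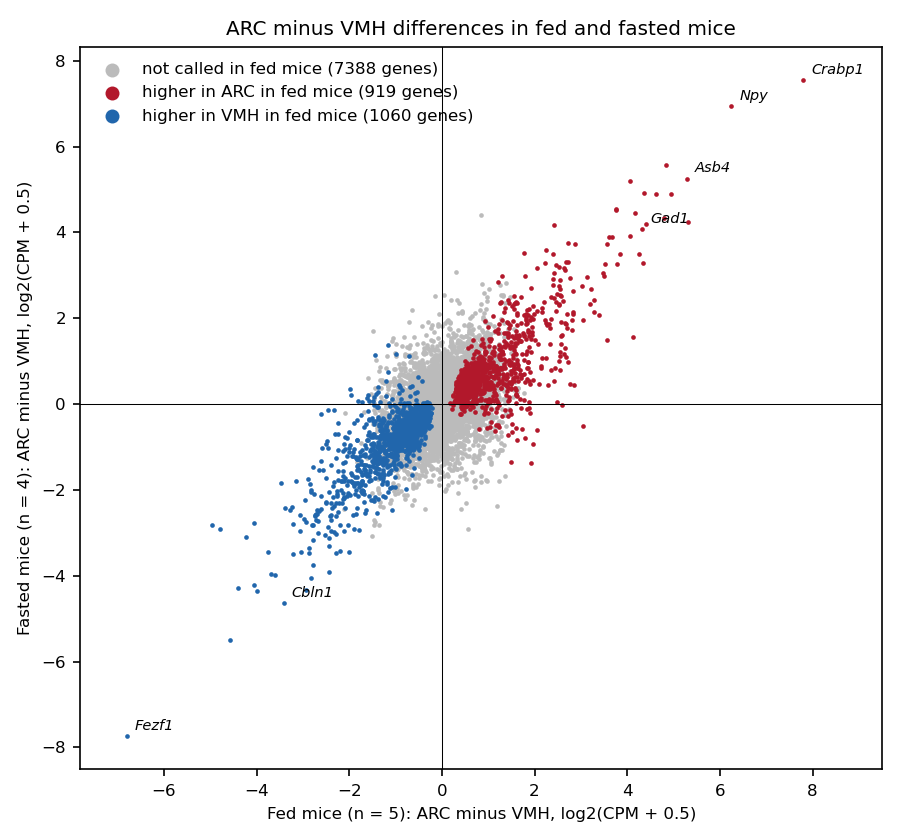
ARC minus VMH difference of each gene on the log2(CPM + 0.5) scale in 5 fed mice (horizontal axis) and 4 fasted mice (vertical axis). Red and blue points are genes called higher in the ARC (919) and in the VMH (1060) in fed mice and tested in both states, and gray points were not called in fed mice. Most colored points, 862 red and 1017 blue, share the sign of the fed difference.

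In fasted mice Npy averaged 730.2 ± 373 CPM in the ARC and 6.996 ± 7.49 CPM in the VMH (SD, n = 4), a difference of 6.94 ± 0.33 (SE, adjusted p = 3.33e-08). Fezf1 averaged 0.509 ± 0.285 CPM in the ARC and 210.3 ± 28.7 CPM in the VMH (SD, n = 4), a difference of -7.74 ± 0.35 (SE, adjusted p = 3.33e-08). Crabp1 averaged 201 ± 59.0 CPM in the ARC and 0.630 ± 0.612 CPM in the VMH (SD, n = 4), a difference of 7.56 ± 0.41 (SE, adjusted p = 9.25e-08). The ARC level of Npy varied by more among fasted mice than among fed mice. Slc17a6 was at 106 ± 15.6 CPM in the ARC and 574 ± 119 CPM in the VMH (SD, n = 4), a difference of -2.41 ± 0.12 (SE, adjusted p = 4.65e-08). Irs4 was at 819 ± 119.5 CPM in the ARC and 182 ± 57.6 CPM in the VMH (SD, n = 4), a difference of 2.21 ± 0.13 (SE, adjusted p = 1.86e-07). All 5 genes had the direction seen in fed mice. The medians of lists in fasted and in fed mice were 3.12 and 3.77 for the ARC markers and -2.41 and -2.38 for the VMH markers. In the same order and without a test, those of other lists were -1.01 and -0.96 for oligodendrocyte markers, -0.54 and -0.47 for pan-neuronal genes, 0.66 and 0.54 for ribosomal protein genes, -0.43 and -0.013 for nuclear receptor and retinoid genes, 0.29 and 0.60 for peptide and hormone receptors, -0.49 and -0.19 for cadherins and 0.054 and 0.37 for microglia markers.

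Whether the difference between the nuclei itself differed by state was tested over all 18 libraries of the 9 mice. None of 10023 genes passed, and the smallest adjusted p was 0.670 in limma. The unadjusted p was under 0.05 for 493 genes (4.92%), against 501 that a uniform p would give. Fasted and fed mice were different animals, so state was compared between mice.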

How the data were processed

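RNA was taken by laser capture from the ARC, VMH, DMH and PVN of male mice with the paternal Snord116 deletion. It was amplified from 2 ng and sequenced in single reads of 50 bases. Per the study's methods, the capture and the making of libraries were done in 3 batches. The authors deposited 1 table of CPM values, read counts scaled to a common library total, for 10127 genes after removing outlier libraries. The submitters' processing notes name CASAVA 1.7, TopHat2 2.0.11, Cufflinks 2.2.1, edgeR and limma. The counter and its use of strand are not given in the sources used here. Of 43 samples, 41 had a column, and 2 columns that matched no sample were left out. Genes with identifiers between ENSMUSG00000000861 and ENSMUSG00000028747 (6725 in GENCODE M21, GRCm38) were not analysed here, among them Agrp, Pomc and Nr5a1. Symbols were found for 9891 genes. Low CPM values were whole multiples of 1 read in 97.2% to 97.8% of values (tolerance 0.02 reads, under 50 reads), which gave the depth. The rest were fractional, so no count test was run.

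Genes with CPM of at least 1 in 5 of 10 libraries were fitted on log2(CPM + 0.5) with limma 3.58.1 in R 4.3.3 (mouse as a block, variance trend, Benjamini-Hochberg). Fasted mice were fitted likewise (4 of 8 libraries), and all 18 libraries together for the interaction. Numbers in the titles name the mouse, so samples were paired by animal. Deviations of the nuclei of a mouse from their group means had correlations of 0.028 to 0.226, and those of mouse Fed-308 correlated more with another mouse (0.078) than with each other (0.059). The p-values and SEs rest on the spread between these mice and on that of other genes. In limma, each gene's variance was drawn toward a trend over expression level (4 residual and 11.6 prior degrees of freedom in fed mice). The scripts were tested on simulated data.

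Genes named were Npy and Fezf1, the 12 largest called differences in each direction with a mean of 5 CPM and no overlap, and members of 25 gene lists, up to 4 called members per list in each library. Other list members and values per library were added after the values were seen, and 1 list member that the rule chose is not reported here. The comparison, its members and the lists were chosen with earlier results of these data known. Promoters came from RefSeq (GRCm38.p6).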

Additional observations from a re-analysis of the deposited data

Results flagged for a closer look

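Each group of 5 fed libraries was examined for a library set apart from the other 4 by Dixon's ratio of its gap to the group's range, for each gene named. Of 332 such groups, 40 held one. A rate of about 1 in 20 (16.6) holds for normally distributed values. The ratio was taken on CPM, where low values rest on few reads, so 40 against 16.6 cannot be read as an excess. Mouse Fed-111, the only one of the 5 fed pairs in batch 1, gave 16 of the 40. Mouse Fed-313 gave 9, mouse Fed-125 gave 8, mouse Fed-308 gave 6 and mouse Fed-127 gave 1. All values are CPM, and the range of the other 4 libraries of the nucleus stands in brackets.

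The VMH library of mouse Fed-111 was apart for Npy at 11.9 (1.21 to 3.00), Cbln1 at 462 (254 to 292), Mtor at 237 (189 to 202), Fa2h at 61.6 (22.5 to 26.9) and Mbp at 947 (402 to 499). The same library was apart for Hes5 at 32.9 (14.0 to 18.8), Resp18 at 412 (184 to 239.5), Slit3 at 189 (91.6 to 102), Slc24a4 at 35.5 (10.9 to 15.7) and Rps27 at 96.3 (34.6 to 48.3). Its ARC library was apart for Fam19a1 at 19.8 (8.89 to 11.6), Ucp2 at 270.5 (102 to 146), Bsx at 43.0 (7.31 to 12.5), Myrf at 24.1 (1.69 to 3.81) and Sox9 at 44.7 (18.2 to 24.6). The same library was apart for Grm5 at 45.1 (78.2 to 90.2).

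The VMH library of mouse Fed-125 stood apart in Ghsr at 9.84 (1.000 to 2.26), Prokr1 at 0.863 (0 to 0.226), Gsx1 at 1.21 (0 to 0.25), Dlk1 at 181 (69.7 to 90.8) and Kcna1 at 86.8 (126 to 141). In the ARC of that mouse the genes were Prokr1 at 47.9 (1.66 to 14.1), Tmem119 at 15.2 (4.98 to 7.53) and Jun at 78.9 (43.1 to 50.2).

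Mouse Fed-313 was apart in the VMH for Chst8 at 15.1 (34.5 to 39.8) and Pcdh7 at 205 (152 to 165). Mouse Fed-313 was apart in the ARC for Fezf1 at 6.83 (0.456 to 2.11), Ptk2b at 6.67 (0.422 to 2.07), Hmcn2 at 2.22 (0.339 to 0.844), Cckbr at 11.3 (0.847 to 2.28) and Pou3f2 at 7.79 (3.19 to 4.40). The same library was apart for Pik3cb at 46.4 (17.3 to 25.5) and Gabra5 at 172 (93.7 to 111.4).

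The VMH of mouse Fed-308 held Dlx1 at 14.7 (0 to 3.49) and Slc10a4 at 1.36 (0 to 0.291). The ARC of mouse Fed-308 held Zfp831 at 10.99 (0.844 to 2.70), Mobp at 147 (30.8 to 60.1), Ano3 at 21.98 (7.17 to 10.7) and Slc16a11 at 11.8 (0 to 2.54). The VMH of mouse Fed-127 was apart for Oprm1 at 7.25 (14.2 to 15.7).

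Among the genes of mouse Fed-111 were the myelin genes Fa2h and Mbp in the VMH and Myrf in the ARC, and ARC-111 had the lowest depth. Of the 7 genes in the ARC of mouse Fed-313, 6 were called higher in the VMH and stood high in this ARC library, Fezf1, Ptk2b, Hmcn2 and Cckbr among them. The part of depth and of tissue from the neighboring nucleus in these values was not tested.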

How the results depend on the processing

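The fed comparison was repeated under 15 alternatives, namely pseudocounts of 0.1 and 2, no filter, a filter at CPM of 5, centring of each library, no trend in the variance, library weights, batch in place of mouse as a block, all 4 nuclei in 1 fit, depth as a covariate, and each mouse left out in turn. Without the trend 555 genes were higher in the ARC instead of 937. The other fed counts lay within 1.5 times of the main ones. Leaving out 1 mouse gave 679 to 767 genes higher in the ARC and 857 to 953 in the VMH, with 365 to 381 and 465 to 479 past 1 log2 unit. In fasted mice, no trend gave 218 genes (208 past 1 log2 unit) in the ARC and 315 in the VMH. Leaving out 1 fasted mouse gave 352 to 804 genes in the ARC (209 to 387 past 1 log2 unit) and 479 to 991 in the VMH (302 to 461 past 1 log2 unit). The cause of these shifts was not tested.

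Without the replicate block of mouse, and with batch as a covariate in its place, 968 genes were higher in the ARC and 1086 in the VMH in fed mice, 714 and 849 in fasted mice. The difference between fed and fasted mice stayed at 0 genes in limma under every alternative run, with 439 to 549 genes at an unadjusted p under 0.05 when 1 mouse was left out. Of 145 genes called and chosen by the naming rule or for the text, 126 stayed past the threshold in every alternative that tested them, 19 lost it in at least 1, and none changed sign. Of the gene lists, no trend gave 18 ribosomal protein genes and 5 imprinted genes higher in the ARC in place of 41 and 8, and 5 pan-neuronal and 5 glutamate receptor genes higher in the VMH in place of 9 and 8. It gave 2 nuclear receptor and 2 transmitter genes higher in the VMH in place of 4 each, 3 astrocyte markers in place of 5, and 7 solute carrier genes higher in the ARC in place of 11. A filter at CPM of 5 gave 11 receptors and 11 transcription factors higher in the ARC in place of 17 and 19. With 2.37 to 6.29 M reads, values near 0 rest on few reads, and differences of such genes depend on the pseudocount.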
